A study of Rattus norvegicus with 8 samples.

Results

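The potassium channel genes of rat hippocampal neurons were followed in the cell bodies and in the processes of cultures exposed to picrotoxin (PTX) or to vehicle as control. Members were all gene symbols of the count table that begin with Kcn followed by further letters, mostly with a number after them, which gave 92 of the 28909 symbols. They cover voltage-gated pores, silent modifier subunits, calcium- and sodium-activated channels, inward rectifiers, tandem-pore leak channels and auxiliary subunits. Of the 92 members, 69 had enough reads to be tested, among 14309 tested genes in all.

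Primary hippocampal neurons of embryonic Sprague-Dawley rats were grown on porous culture inserts, so that RNA could be taken separately from the upper side with the somata and from the lower side with the axons and dendrites that had grown through the pores. PTX, a blocker of GABA-A receptors that raises network activity, was present for 48 h between days 18 and 20 in vitro, and control cultures received its ethanol vehicle. Total RNA depleted of ribosomal RNA was sequenced from 4 conditions, somata control, somata PTX, processes control and processes PTX, with 2 libraries each. The process fraction mixes axons, dendrites and any glial processes below the membrane, and the cultures were not purified for 1 cell type. Nothing in the labels says that the 2 libraries of a condition came from separate cultures, so p-values measure the spread between these libraries, which may be partly technical.

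Potassium channels let potassium leave the cell and thereby set the resting potential, end each action potential and space the spikes of a train. Pore subunits assemble as tetramers or, in the leak class, as dimers, and silent or auxiliary partners change their gating and their delivery to the axon, soma or dendrite. In hippocampal neurons the Kv1 and Kv7 classes restrain the axon initial segment, the Kv4 class with its KChIP partners shapes dendritic signals, and inward rectifiers and leak channels hold the membrane near rest.

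The libraries held between 12290890 and 18455662 counts. Mitochondrially encoded genes took 22.6 to 26.7% of the counts in somata and 68.5 to 72.5% in processes, which left less depth for nuclear transcripts in processes. Potassium channel genes received between 22099 and 27459 reads in each somata library and between 8099 and 9940 in each processes library. The median tested member had 168 to 232 reads per library in somata and 55 to 71 in processes. Each level is in CPM, the reads of a gene per 1000000 in its library, on a TMM scale that aligns the bulk of the genes between libraries. Summed over the 92 members, the level was 1032 and 972 CPM in the somata control libraries, 987 and 936 in somata PTX, 1108 and 985 in processes control, and 930.0 and 939 in processes PTX. On this scale the sums of the 4 conditions lay close together, and those of the control and PTX libraries overlapped in somata but not in processes. As a share of the counts that were not mitochondrial, members took 0.232 to 0.255% in somata libraries and 0.168 to 0.196% in processes libraries.

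Among the 23 members with too few reads for a test, none had more than 20 reads in any library. No read at all was found for Kcne1, Kcnj1, Kcnj15, Kcnmb1, Kcnu1 and Kcnv2, where 3 reads, the most that a count of 0 allows, would be 0.108 to 0.128 CPM in somata and 0.302 to 0.352 CPM in processes, counting error only. The remaining low members were Kcna5, Kcna7, Kcna10, Kcne3, Kcne4, Kcnh6, Kcnj5, Kcnj8, Kcnk5, Kcnk6, Kcnk7, Kcnk13, Kcnk16, Kcnk18, Kcnmb3, Kcnn4 and Kcns1. These include channels best known from heart, kidney, vessel wall and immune cells, such as Kcna5 and Kcnn4. Kcnu1, the sperm relative of the BK pore, is the sole Kcnu gene in the table and was not detectable at this depth.

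The first question was which potassium channel genes changed with 48 h of PTX in the somata. In the edgeR quasi-likelihood test with Benjamini-Hochberg adjustment over all tested genes, 5 of 69 members rose, against 2.09% of all tested genes, and 6 fell, against 1.50%. The risers were the Kv1 pore Kcna1, the silent modifier Kcnf1, the inward rectifier Kcnj4, the leak channel Kcnk12 and the sodium-activated pore Kcnt1. Lower with PTX were the Kv3 pore Kcnc4, the silent modifiers Kcng1 and Kcng2, the Kv4 partner Kcnip2, the leak channel Kcnk9 and the BK partner Kcnmb4. With the replicate number as a block, 10 members were higher and 13 lower, against 7.21 and 6.79% of all tested genes, and all 11 calls made without the block were among them. Members passed more often than tested genes at large in either direction, but the list was chosen with earlier results known and nothing particular to it is read from these shares. The count rested on the somata libraries, being 6 without somata control replicate 1, 0 without somata control replicate 2, 1 without somata PTX replicate 1 and 6 without somata PTX replicate 2. None of the 11 log2 fold changes changed sign in these fits.

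In processes, 2 members rose, against 1.64% of all tested genes, and 7 fell, against 2.10%. Kcnk3 and Kcnt1 were higher, and those lower included the Kv3 pore Kcnc4, the silent modifiers Kcng1 and Kcng2, the partner subunits Kcnip2 and Kcnab2 and the leak channel Kcnk9. With the replicate block the counts were 4 higher and 11 lower, against 5.10 and 6.09% of all tested genes, and the 9 calls were kept. The count was 1 without processes control replicate 1, 1 without processes PTX replicate 1 and 2 without processes PTX replicate 2, with no change of sign among the 9. Kcnt1, Kcnc4, Kcng1, Kcng2, Kcnip2 and Kcnk9 passed in both compartments, which is 54.5% of the calls in somata and 66.7% of those in processes. The corresponding shares over all tested genes were 48.5 and 46.5%. All 14 members called in either compartment had the same sign in both, as did 783 of the 799 genes called in either over the whole table, and 49 of the 69 tested members (71.0%) did, against 67.3% of all tested genes. The somata and processes comparisons share no libraries, although same-numbered libraries deviated together. The median log2 fold change of the tested members was -0.03 in somata and -0.15 in processes, beside -0.01 and -0.01 for all tested genes. These medians moved with single libraries, the somata one to 0.0433 without somata control replicate 1, -0.112 without somata control replicate 2, -0.0715 without somata PTX replicate 1 and -0.0542 without somata PTX replicate 2. The processes one moved to -0.0354 without processes control replicate 1 and -0.229 without processes control replicate 2, and library size scaling turned the somata median to 0.0363.

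**Figure D1:**
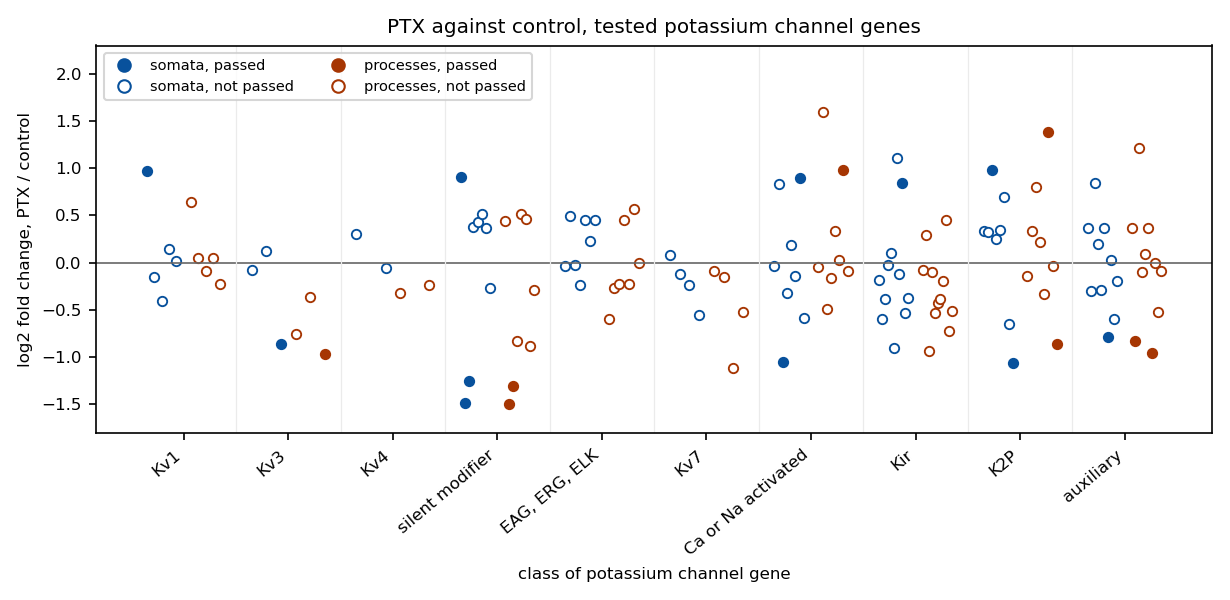
Each circle is the log2 fold change of 1 tested potassium channel gene, PTX over control, for 66 genes by class on the horizontal axis, with somata in blue and processes in brown and filled circles for genes with an adjusted p below 0.05. Among the genes drawn, 5 filled circles lie above 0 and 6 below in somata, and 2 above and 6 below in processes, with the lowest values in the silent modifier class.

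Whether the PTX effect differed between the compartments was tested by the interaction. None of the 69 members passed, as was the case for 0% of all tested genes, and with the replicate block 0 members passed beside 0.105% of all tested genes. The likelihood ratio test and DESeq2 also called 0 members. Without adjustment, 6 members and 572 of all tested genes (4%) had p under 0.05. The smallest unadjusted p among members were those of Kcnc1, Kcnh5 and Kcnab2, with 0.0264, 0.0318 and 0.0439. In each of these the PTX effect was lower in processes than in somata, by log2 differences of -0.68, -0.68 and -0.53. Leaving out 1 library moved the difference of Kcnab2 between -0.74 and -0.28. A member called in 1 compartment alone is therefore not shown to differ between them.

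Markers of the cell types moved with PTX. The list for excitatory neurons held 9 markers, all tested, but Map2 and Rbfox3 on it mark neurons in general. The summed level of the 9 was 1456 and 1339 CPM in somata control and 1181 and 1111 in somata PTX. In processes it was 5715 and 5287 in control and 4478 and 3910 in PTX. Map2, the most abundant, alone made up 985 and 887 CPM of the somata control sums and 4693 and 4524 of the processes control sums. Without the block Map2 did not pass for PTX (adjusted p = 0.669 in somata and 0.240 in processes). In somata Neurod6, Camk2a and Rbfox3 fell and none rose. In processes Neurod6 and Camk2a fell and Slc17a7 rose (log2 fold change 0.73, adjusted p = 0.0172), and with the block 7 of the 9 fell and 1 rose in somata, and 7 fell and 2 rose in processes, Slc17a6 rising in both. The 7 inhibitory neuron markers, 6 of them tested, summed to 341 and 240 CPM in somata control and 550 and 418 in somata PTX, with 174 and 135 against 287 and 219 in processes. Gad2, the most abundant, rose in both compartments, Gad1 rose in somata, Slc32a1 did not pass in either (log2 fold changes -0.02 and 0.16), and Pvalb had at most 18 reads in any library. With the block 5 of the 6 tested inhibitory markers rose in somata and 2 in processes, and none fell. The part of these shifts in the potassium channel results was not tested, and in bulk RNA fewer cells of a type and less RNA per cell cannot be told apart. Microglial markers summed to at most 1.73 CPM in any library and none was tested, with Csf1r the most abundant. The 7 endothelial, mural and fibroblast markers, 4 of them tested, summed to 103 and 42.8 CPM in somata control and 113 and 60.5 in somata PTX, with Col3a1 the most abundant, Cldn5 at 0 in every library and none called for PTX, while with the block 2 rose in somata and 1 in processes.

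Kv1 channels are low-threshold delayed rectifiers of axons and terminals, and 1 of the 5 tested members passed. Kcna1, a pore that limits firing at the axon initial segment, was at 14.9 and 17.6 CPM in somata control and at 30.1 and 33.5 in somata PTX. The groups did not overlap, and both PTX libraries lay near double the control level. Kcna1 had a log2 fold change of 0.97 (SE 0.19, adjusted p = 0.0173), and it passed in 4 of the 8 fits that left out 1 library, and did not without any 1 of the 4 somata libraries (adjusted p from 0.0589 to 0.137). In processes Kcna1 was at 5.80 and 10.7 CPM in control and 13.1 and 12.6 in PTX, a log2 fold change of 0.64 that did not pass (adjusted p = 0.198) and passed with the replicate block (0.0259). Kcna2, its usual partner in axonal tetramers, took the most reads of the class, a number that reflects transcript length as well as level. It was at 148 and 140 CPM in somata control and 130.2 and 129.5 in somata PTX, with log2 fold changes of -0.15 in somata and 0.05 in processes that did not pass.

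Kv3 channels open at strong depolarization and close fast, which allows brief spikes and high firing rates. Kcnc4, an inactivating Kv3 pore, was at 11.1 and 12.7 CPM in somata control and 6.47 and 6.65 in somata PTX. In processes it was at 18.3 and 11.3 CPM in control and 7.81 and 7.34 in PTX. Both PTX groups lay below their controls without overlap, and the processes control libraries stood apart from each other. Kcnc4 had a log2 fold change of -0.86 in somata (SE 0.19, adjusted p = 0.0351) and -0.97 in processes (SE 0.22, adjusted p = 0.0404), and the processes value was -0.58 with adjusted p = 0.267 without processes control replicate 1. It also missed the threshold in processes without processes PTX replicate 1 (0.143) or 2 (0.181) and without somata control replicate 1 (0.0556) or 2 (0.0563). In somata it missed the threshold without any 1 of the 4 somata libraries (adjusted p from 0.0917 to 0.246). Kcnc1, the pore with the smallest interaction p, was at 6.91 and 6.11 CPM in processes control and 4.13 and 3.62 in processes PTX, against 6.84 and 6.27 in somata control and 6.44 and 6.01 in somata PTX. The PTX libraries were lower than control in processes, and the groups overlapped in somata. Its change in processes, -0.75, did not pass (adjusted p = 0.0809) and passed with the replicate block (0.0317).

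Kv4 pores, which open and inactivate below spike threshold, gave no call. Kcnd3, an A-type pore, was at 36.9 and 38.5 CPM in somata control and 36.3 and 35.9 in somata PTX, and its log2 fold change was -0.06 there and -0.23 in processes. Kcnip2, a calcium-binding KChIP subunit that brings Kv4 pores to the membrane and slows their inactivation, did change. It was at 50.3 and 49.4 CPM in somata control and 27.8 and 29.9 in somata PTX. In processes the values were 75.3 and 60.2 CPM in control and 31.8 and 37.8 in PTX. All 4 PTX libraries lay below all 4 control libraries. The log2 fold change was -0.79 in somata (SE 0.13, adjusted p = 0.0086) and -0.96 in processes (SE 0.14, adjusted p = 0.00514), and the latter passed in 7 of the 8 fits without 1 library, missing the threshold without processes control replicate 1 (adjusted p = 0.0505). In somata Kcnip2 missed the threshold without somata PTX replicate 1 (adjusted p = 0.0823), somata control replicate 1 (0.0543) or somata control replicate 2 (0.0611). The other KChIP genes, Kcnip1, Kcnip3 and Kcnip4, had log2 fold changes between -0.60 and 0.36 in both compartments and none passed, while Kcnip4 in somata passed with the replicate block (adjusted p = 0.367 without and 0.0214 with it).

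Kcnf, Kcng, Kcns and Kcnv subunits carry no current of their own and change the gating of Kv2 pores when they join them. Of 8 tested, 1 rose and 2 fell in somata, and 2 fell in processes. Kcng1 was at 4.08 and 5.88 CPM in somata control and 1.29 and 2.29 in somata PTX. In processes it was at 6.69 and 7.16 CPM in control and 1.84 and 3.02 in PTX. The PTX libraries of both compartments lay below every control library, on 16 to 54 reads per PTX library. Its log2 fold change was -1.49 in somata (SE 0.30, adjusted p = 0.0227) and -1.49 in processes (SE 0.35, adjusted p = 0.0443), the lowest of any tested member in either compartment. The somata call was lost without somata control replicate 2 (adjusted p = 0.205) or somata PTX replicate 1 (0.184). In processes the call was lost without any 1 of the 4 processes libraries (adjusted p from 0.0953 to 0.220) or somata control replicate 2 (0.0520), and with library size scaling (-1.44, adjusted p = 0.0653). Kcng2 was at 9.22 and 9.32 CPM in somata control and 3.92 and 3.85 in somata PTX. In processes the control libraries were at 25.5 and 15.3 CPM and the PTX libraries at 8.61 and 7.94. The somata replicates nearly coincided, whereas the processes control libraries differed widely. Log2 fold changes of Kcng2 were -1.25 in somata (SE 0.22, adjusted p = 0.0104) and -1.31 in processes (SE 0.23, adjusted p = 0.0125). The somata call of Kcng2 was lost without any 1 of the 4 somata libraries (adjusted p from 0.0516 to 0.0726), and the processes call without processes control replicate 1 (0.0722), processes PTX replicate 1 (0.0691) or processes PTX replicate 2 (0.0923). Kcnf1 moved the other way, from 17.3 and 12.1 CPM in somata control to 30.5 and 24.5 in somata PTX. These groups did not overlap, and replicate 1 was the higher library in both. For Kcnf1 the log2 fold change was 0.90 in somata (SE 0.21, adjusted p = 0.0380), missed without somata control replicate 2 (adjusted p = 0.313), somata PTX replicate 1 (0.261) or somata PTX replicate 2 (0.0591), and 0.44 in processes, which did not pass (adjusted p = 0.478).

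**Figure D2:**
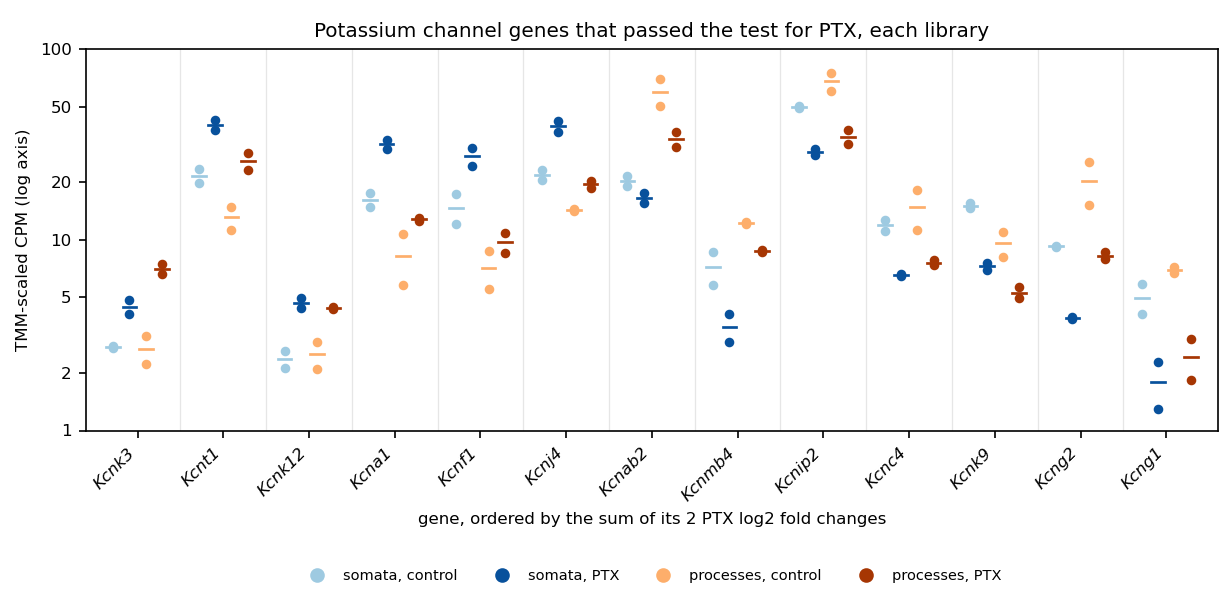
Level of 13 potassium channel genes that passed for PTX in either compartment, as TMM-scaled CPM on a log axis. Each point is 1 library and each bar the mean of the 2 libraries of a condition, with genes ordered from those higher with PTX (Kcnk3, Kcnt1) to those lower (Kcng2, Kcng1).

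Among the EAG, ERG and ELK pores none of 7 tested members passed, and with the replicate block 1 rose in somata and 1 fell in processes. Kcnh3, an ELK pore of forebrain neurons, had log2 fold changes of -0.02 in somata and -0.23 in processes. Kcnh5, an EAG pore, was at 5.31 and 5.29 CPM in somata control and 7.33 and 7.11 in somata PTX, and at 3.79 and 3.76 in processes control and 3.33 and 3.12 in processes PTX. Its PTX libraries lay above control in somata and below control in processes, and neither log2 fold change, 0.45 and -0.23, passed (adjusted p = 0.184 and 0.709).

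Kv7 pores carry the M current, which muscarinic receptors shut and which restrains repetitive firing. Kcnq5, a pore of this current, was at 46.2 and 36.2 CPM in somata control and 32.0 and 24.0 in somata PTX, and at 27.8 and 22.3 in processes control and 19.3 and 15.7 in processes PTX. Every PTX library was below both control libraries of its compartment. Its log2 fold changes, -0.56 and -0.52, did not pass (adjusted p = 0.124 and 0.216) and passed with the block (0.00012 and 0.00637) and without a filter (0.00332 and 0.0350). Kcnq3, another M-current pore, had log2 fold changes of -0.12 in somata and -0.15 in processes.

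In the group opened by calcium or sodium, Kcnt1 rose in both compartments. Kcnt1 encodes a sodium-activated pore that follows trains of spikes with a slow afterhyperpolarization. It was at 23.5 and 19.8 CPM in somata control and 42.6 and 37.8 in somata PTX. In processes it was at 14.9 and 11.3 CPM in control and 28.7 and 23.3 in PTX. Every PTX library lay above both controls of its compartment, and replicate 1 was the higher library of each condition. The log2 fold change was 0.89 in somata (SE 0.15, adjusted p = 0.00918) and 0.98 in processes (SE 0.18, adjusted p = 0.0149), and each passed in 6 of the 8 fits without 1 library. The somata call was lost without somata control replicate 2 (adjusted p = 0.124) or somata PTX replicate 1 (0.0758), and the processes call without processes PTX replicate 1 (0.0989) or processes control replicate 2 (0.0784). Kcnt2, its closest relative, was at 20.5 and 16.5 CPM in somata control and 13.3 and 11.3 in somata PTX, the opposite direction. Its log2 fold change of -0.58 did not pass (adjusted p = 0.0926), and passed with the block (0.000902), by the likelihood ratio test (0.0313) and without a filter (0.00961). In processes it was -0.09. Kcnmb4, the neuronal BK partner that slows the channel and shields it from toxins, was at 5.82 and 8.66 CPM in somata control and 2.91 and 4.11 in somata PTX. The groups did not overlap, with replicate 2 the higher library in both. Kcnmb4 had a log2 fold change of -1.05 in somata (SE 0.22, adjusted p = 0.0270), which was -0.75 with adjusted p = 0.257 without somata control replicate 2 and missed the threshold also without somata PTX replicate 1 (0.213), and -0.49 in processes (adjusted p = 0.334). The BK pore Kcnma1 itself was at 57.9 and 51.7 CPM in somata control and 55.7 and 51.3 in somata PTX. Its values overlapped in somata, and its log2 fold changes were -0.04 in both compartments, turning slightly positive with library size scaling. The SK pore Kcnn2, which produces the medium afterhyperpolarization, had log2 fold changes of 0.18 and 0.34 that did not pass.

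Inward rectifiers pass potassium near rest and close on depolarization, and 1 of 11 tested members passed in somata and none in processes. With the replicate block 2 rose and 2 fell in somata, and 1 rose and 1 fell in processes. The highest log2 fold change of any member in somata, 1.11, was in this class and passed with the block (adjusted p = 0.0872 without and 0.0134 with it). Kcnj4, a strong rectifier of forebrain dendrites, was at 23.2 and 20.6 CPM in somata control and 42.0 and 36.7 in somata PTX. In processes the values were 14.5 and 14.1 CPM in control and 20.4 and 18.7 in PTX. Neither pair of groups overlapped. The log2 fold change of 0.84 in somata (SE 0.12, adjusted p = 0.00391) passed in 7 of the 8 fits without 1 library, but not without somata control replicate 2 (adjusted p = 0.0680), and the change of 0.45 in processes did not pass (adjusted p = 0.125) and passed with the block (0.0280). Kcnj6, a pore opened by G proteins downstream of GABA-B and adenosine receptors, was at 16.2 and 15.2 CPM in somata control and 12 and 9.74 in somata PTX, and at 9.70 and 8.10 in processes control and 5.28 and 5.53 in processes PTX. PTX libraries were lower in both compartments. Its log2 fold changes of -0.53 and -0.72 did not pass (adjusted p = 0.0777 and 0.0748), and passed with the block (0.00328 and 0.0183), by the likelihood ratio test (0.0250 and 0.0353) and without a filter (0.0362 and 0.0336). Kcnj3, the other main pore of that channel, had -0.12 and -0.19.

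Kcnj10 and Kcnj16 encode rectifier subunits that glia use to clear potassium around neurons. Kcnj10 was at 12.8 and 21.6 CPM in somata control, 9.17 and 21.3 in somata PTX, 41.3 and 65.6 in processes control, and 29.7 and 71.3 in processes PTX. In every condition replicate 2 was the higher library, and control and PTX overlapped. Its log2 fold changes of -0.19 and -0.07 for PTX did not pass, and their sign depended on which library was left out. Kcnj16 was at 2.55 and 3.17 CPM in somata control and 1.15 and 1.95 in somata PTX, a log2 fold change of -0.90 that did not pass (adjusted p = 0.178) and passed with the block (0.00854) and without a filter (0.0152). Leaving out 1 library moved this Kcnj16 value between -1.31 and -0.56. The 8 astrocyte markers, 7 of them tested, summed to 3651 and 4077 CPM in somata control and 2756 and 3799 in somata PTX, with replicate 2 the higher library in both, whereas replicate 1 was the higher in processes control. Of these markers Gja1 fell in somata and none passed in processes, while with the block 2 fell in somata and 1 rose and 1 fell in processes, Gfap was the most abundant, and Gjb6 had at most 5 reads in any library. The 8 oligodendrocyte lineage markers together were higher in replicate 2 of every condition, at 203 and 320.5 CPM in somata control and 189 and 277 in somata PTX. All 8 were tested, Pdgfra was the most abundant and none passed for PTX, while with the block 1 fell in each compartment. The part of glial content in the Kcnj10 and Kcnj16 values was not tested.

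Leak channels of the K2P class set the resting conductance, and in each compartment 1 rose and 1 fell among 8 tested. Kcnk3 and Kcnk9 encode the acid-sensitive TASK pair, which can form channels together. Kcnk3 was at 3.12 and 2.23 CPM in processes control and 7.46 and 6.64 in processes PTX, and at 2.72 and 2.78 in somata control and 4.82 and 4.11 in somata PTX. Its PTX libraries were above control in both compartments without overlap. The log2 fold change was 1.39 in processes (SE 0.25, adjusted p = 0.0150), on 19 to 66 reads per library, with adjusted p from 0.0536 to 0.0815 without any 1 of the 4 processes libraries, and 0.70 in somata, which did not pass (adjusted p = 0.106) and passed with the block (0.0150). Kcnk9 went the opposite way, from 14.6 and 15.6 CPM in somata control to 6.98 and 7.54 in somata PTX. In processes it was at 11 and 8.10 CPM in control and 5.63 and 4.93 in PTX. Every PTX library was below both controls. Log2 fold changes of Kcnk9 were -1.06 in somata (SE 0.16, adjusted p = 0.00495) and -0.86 in processes (SE 0.20, adjusted p = 0.0412), and the processes call held in 1 of the 8 fits without 1 library, with adjusted p up to 0.266 without processes control replicate 1. The processes call was kept only without processes control replicate 2 (0.0272). The somata call was lost without somata control replicate 2 (adjusted p = 0.0567) or somata PTX replicate 1 (0.0516). Kcnk12, a THIK subunit that gives little or no current when alone, was at 2.13 and 2.62 CPM in somata control and 4.96 and 4.40 in somata PTX. The groups did not overlap. Its log2 fold change was 0.98 in somata (SE 0.22, adjusted p = 0.0341) and 0.80 in processes, which did not pass (adjusted p = 0.159), and the somata call was not made by DESeq2 (adjusted p = 0.0973) or without any 1 of the 4 somata libraries (adjusted p from 0.110 to 0.244). Kcnk10, a TREK channel gated by stretch and lipids, took the most reads of the class and had log2 fold changes of 0.33 in both compartments that did not pass.

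With the BK partners counted among the calcium- or sodium-activated channels, auxiliary subunits other than the KChIPs gave 1 call for PTX, and with the replicate block 1 more, a rise in somata. Kcnab2, a cytoplasmic Kv1 partner that helps deliver the pores to axons, was at 69.4 and 50.5 CPM in processes control and 37.0 and 30.8 in processes PTX, and at 19.2 and 21.6 in somata control and 17.6 and 15.6 in somata PTX. PTX libraries lay below control in both compartments, by more in processes. The log2 fold change was -0.83 in processes (SE 0.17, adjusted p = 0.0226) and -0.30 in somata (adjusted p = 0.439), and the interaction did not pass. The change in processes missed the threshold without processes control replicate 1 (adjusted p = 0.170), processes PTX replicate 1 (0.0646) or processes PTX replicate 2 (0.144). Kcne5, a beta subunit with 1 membrane span, and Kcnrg, a soluble regulator of Kv assembly, had log2 fold changes between -0.29 and 0.10 that did not pass.

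Genes that work with these channels were taken as a list of 20, of which 19 were in the count table and 15 were tested. None rose in either compartment, against 2.09% of all tested genes in somata and 1.64% in processes. Cntn2 and Akap5 fell in somata, against 1.50%, and Cntn2 in processes, against 2.10%. Cntn2, an adhesion molecule that gathers Kv1 channels beside the node, was at 10 and 10.8 CPM in somata control and 4.64 and 5.04 in somata PTX, and at 7.81 and 6.11 in processes control and 2.07 and 2.51 in processes PTX. Every PTX library lay below both controls. Cntn2 had log2 fold changes of -1.10 in somata (SE 0.17, adjusted p = 0.00587) and -1.60 in processes (SE 0.24, adjusted p = 0.00567). Akap5, a scaffold that ties kinases to Kv7 channels, had -0.83 in somata (SE 0.14, adjusted p = 0.00844). The Kv4 partner Dpp6 and the Kv2 partners Amigo1, Vapa and Vapb did not pass for PTX. Dpp10, also a Kv4 partner, had -0.44 in somata, which did not pass (adjusted p = 0.0897) and passed with the replicate block (0.00704), and 0.04 in processes. With that block 3 of the 15 partner genes fell in somata, against 6.79% of all tested genes.

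The next question was how potassium channel transcripts were divided between processes and somata. In control cultures 7 of 69 members were enriched in processes, with an adjusted p below 0.05 and a log2 fold change above 1, against 11.6% of all tested genes, and 10 were depleted, against 7.58%. In PTX cultures 8 were enriched, against 11.4%, and 19 depleted, against 9.67%. Without the block, 7 enriched and 9 depleted members were the same in control and PTX, as were 1386 enriched and 774 depleted genes of the whole table. The control and PTX comparisons share no libraries, but their same-numbered libraries deviated together. With the replicate block the counts were 7 and 11 in control, against 11.7 and 8.8% of all tested genes, and 9 and 20 in PTX, against 11.4 and 10.5%. The median log2 fold change of the tested members was -0.46 in control and -0.45 in PTX, beside -0.05 and -0.05 for all tested genes, and it was -0.22 and -0.16 over the 54 members with at least 10 reads in every library. The control median was -0.28 without processes control replicate 2 and -0.32 without somata control replicate 1, and the PTX median -0.33 without somata PTX replicate 1 and -0.33 without processes PTX replicate 2. These values rest on TMM scaling. With upper quartile scaling 6 members were enriched and 15 depleted in control, against 8.48 and 12.7% of all tested genes, and 5 and 22 in PTX, against 8.73 and 14.2%. Library size scaling keeps the large mitochondrial share of processes in the total. It moved the median of all tested genes to -1.86 in control and -1.87 in PTX, and 0 members were then enriched and 60 depleted in each. The part of the mitochondrial share in this shift was not tested. Of all tested genes 0.342% were then enriched and 84.3% depleted in control, and 0.356 and 84.9% in PTX, so enrichment is meant here relative to the bulk of the genes.

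**Figure D3:**
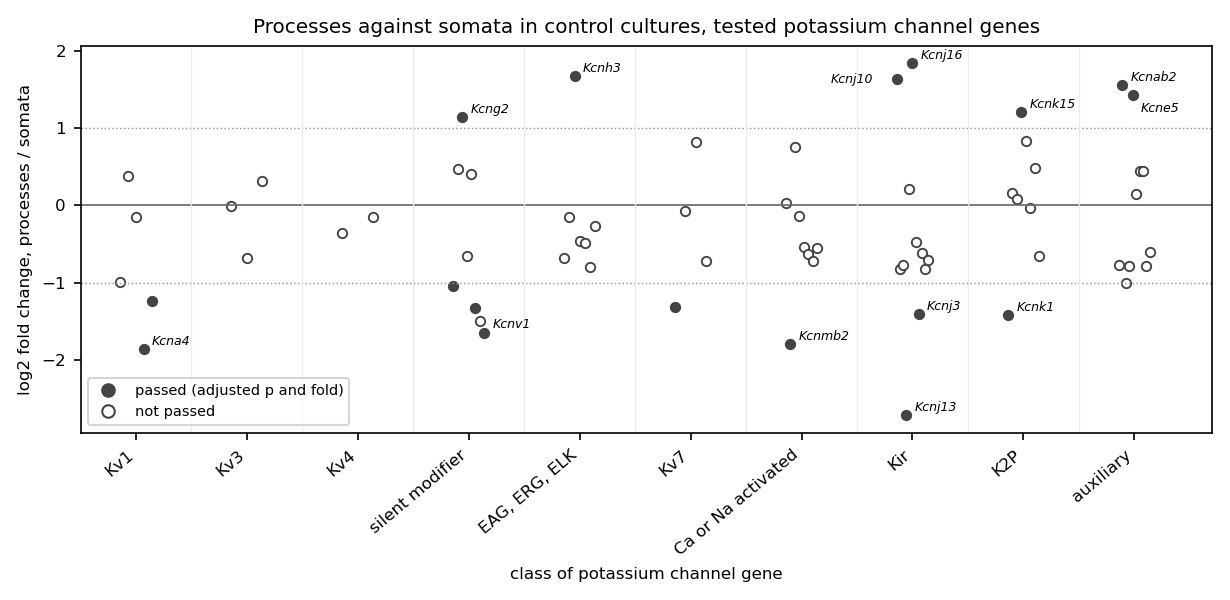
Log2 fold change of 66 tested potassium channel genes, processes over somata in control cultures, by class, with dotted lines at 1 and -1 and filled circles for genes that passed both the adjusted p and the fold threshold. With TMM scaling 7 filled circles lie above 1 and 10 below -1, and with library size scaling none of the genes drawn passed above 1.

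Enriched in processes was Kcnh3, the ELK pore, with 17.1 and 17.0 CPM in somata control and 60.6 and 47.9 in processes control. All processes libraries, PTX included at 40.2 and 52.2, lay above all somata libraries. Kcnh3 had a log2 fold change of 1.67 (SE 0.19, adjusted p = 4.14e-05). Kcnab2 was higher in processes in the control libraries given above, with a log2 fold change of 1.55 (SE 0.16, adjusted p = 2.63e-05) in control and 1.03 in PTX. Kcng2, the silent subunit, had 1.14 (SE 0.21, adjusted p = 0.00111), which was 0.72 without processes control replicate 1 and 0.93 with upper quartile scaling, both short of the fold threshold. Kcne5 was at 6.59 and 11.8 CPM in somata control and 20.9 and 28.5 in processes control, with replicate 2 the higher library in each. The groups did not overlap, and the log2 fold change was 1.42 (SE 0.34, adjusted p = 0.00574), with adjusted p = 0.0592 without processes control replicate 2. Kcnk15, a TASK relative not known to carry current alone, was at 2.64 and 2.66 CPM in somata control and 6.69 and 5.52 in processes control, a log2 fold change of 1.20 (SE 0.21, adjusted p = 0.00102).

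The glial rectifier subunits completed the enriched group. Kcnj10 had a log2 fold change of 1.63 in control (SE 0.45, adjusted p = 0.012), which no longer passed without somata control replicate 1 (1.3, adjusted p = 0.0796) or processes control replicate 2 (1.26, adjusted p = 0.107). Kcnj16 was at 7.92 and 12.7 CPM in processes control, against the lower somata values given above, a log2 fold change of 1.84 (SE 0.29, adjusted p = 0.00045). Neither overlapped between compartments. The summed level of the astrocyte markers was also higher in processes, at 14255 and 12695 CPM in control and 10788 and 12065 in PTX, and 2 of the 7 tested, Gfap and S100b, were enriched in control. Gfap alone made up 11111 and 9382 CPM of the processes control sums, and Slc1a3 and Gja1 were lower in processes, by -0.56 and -0.38 (adjusted p = 0.0143 and 0.0268), short of the fold threshold. Slc1a2 was higher in processes, by 0.75 (adjusted p = 0.00166), also short of that threshold. With library size scaling the log2 fold change of Kcnj10 was -0.16 and that of Kcnj16 was 0.05. The part of astrocyte content in these values was not tested.

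Members depleted in processes were led by subunits of several classes. Kcna4, the inactivating Kv1 pore, was at 27.2 and 23.4 CPM in somata control and 7.69 and 6.22 in processes control. Its groups were far apart, and the log2 fold change of -1.86 (SE 0.16, adjusted p = 5.84e-06) passed in all 8 fits without 1 library. Kcnv1, a silent subunit, fell from 13.2 and 10.7 CPM to 4.57 and 3.05, a log2 fold change of -1.64 (SE 0.25, adjusted p = 0.000389). Kcnk1, a weak leak channel held largely inside the cell, was at 14.0 and 13.9 CPM in somata control and 6.02 and 4.35 in processes control, a log2 fold change of -1.42 (SE 0.19, adjusted p = 0.000148). Kcnj3, the G-protein-gated pore, went from 18.9 and 14.4 CPM to 6.58 and 5.99, a log2 fold change of -1.40 (SE 0.20, adjusted p = 0.000208). None of these groups overlapped, and the calls of Kcnv1, Kcnk1 and Kcnj3 were made in all 8 fits without 1 library.

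For several of the other depleted members the call rested on few reads in processes. Kcns2, a silent subunit, had 74 and 74 reads in somata control and 9 and 12 in processes control, a log2 fold change of -1.32 (SE 0.34, adjusted p = 0.00897) that missed the threshold without processes control replicate 1 (adjusted p = 0.0756). Kcnmb2, the BK partner that gives inactivation, had 50 and 38 reads in somata control and 4 and 5 in processes control (-1.79, SE 0.66, adjusted p = 0.0444). Kcnq1, a pore known mainly from heart and epithelia, had 42 and 35 reads against 8 and 3 (-1.32, SE 0.48, adjusted p = 0.0424). The groups did not overlap in any of these, and the call of Kcnmb2 was made in 5 and that of Kcnq1 in 4 of the 8 fits without 1 library, being lost for Kcnmb2 without somata control replicate 1 (adjusted p = 0.141), processes control replicate 1 (0.195) or processes control replicate 2 (0.133). Kcnq1 lost its call without somata control replicate 1 (0.144) or 2 (0.0518), somata PTX replicate 2 (0.0528) or processes control replicate 2 (0.252). Kcnq1 did not pass with DESeq2 (adjusted p = 0.122), and its log2 fold change ranged from -2.14 to -0.81 in the 8 fits without 1 library. Kcnj13, a rectifier of choroid plexus and retinal epithelium, had 29 and 28 reads in somata control and 0 and 3 in processes control, too few for a fold change, and its call was lost without processes control replicate 1 (adjusted p = 0.132) or somata control replicate 1 (0.0512). Kcnf1, higher with PTX in somata, was also depleted, at 17.3 and 12.1 CPM in somata control and 8.70 and 5.52 in processes control (-1.04, SE 0.25, adjusted p = 0.00591), short of the fold threshold without somata control replicate 1 (-0.77) or processes control replicate 2 (-0.76). The remaining depleted member was the Kv1 pore Kcna6.

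The partner genes of the channels also divided between compartments. In control, 3 of the 15 tested were enriched in processes, Vapb and Calm3 among them, against 11.6% of all tested genes. Amigo1, Lrrc55, Adam22 and Lgi1 were depleted, against 7.58%. Vapb, an anchor of Kv2 clusters at the endoplasmic reticulum, had a log2 fold change of 1.49 (SE 0.12, adjusted p = 3.95e-06). Lgi1, a secreted protein that binds Adam22 and limits Kv1 inactivation, had -1.38 (SE 0.14, adjusted p = 2.65e-05).

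Some members rose and others fell with PTX. The 250 bases before the gene start were searched on both strands for short motifs of activity-dependent factors, in RefSeq sequences of build GRCr8. A sequence was at hand for 62 of the 92 members and 8 of the 14 called for PTX, and the members called for PTX without one included Kcna1, Kcng1, Kcnk3, Kcnk9 and Kcnk12. The full cyclic AMP response element TGACGTCA was in 0 of the 62, against 1.70% of 27457 promoters, the AP-1 motif TGACTCA in 1 (Kcne1), against 3.98%, and the EGR motif GCGTGGGCG in 0, against 0.514%. The core TGACG, which TGACGTCA contains on either strand, was in 12 of the 62 (19.4%), against 19.0% of all promoters. Among the 8 it was found before Kcnj4 and Kcnt1, both higher with PTX, but not before Kcnf1, which was higher too, nor before any of the 5 that were lower. Kcnq5, lower with PTX and passing with the block, also had the core. With 8 genes the difference between directions was not tested. These are shown with the core in capitals, 5′ to 3′ on the strand of the gene, Kcnj4 from chr7:112954593-112954619 on the minus strand and Kcnt1 from chr3:29081168-29081194 on the plus strand.
Kcnj4: cgtctcccgagTGACGaggcgcgaacc
Kcnt1: cccccacacacTGACGgacacacacat
A match describes letters in this window and says nothing of whether a factor binds there.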

How the data were processed

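The deposited values are read counts per gene symbol, which the authors made by trimming reads, mapping them to Rnor_6.0, counting with featureCounts and summing by symbol. The aligner is STAR in the submitters' processing notes and Subread in the methods. How the counting used strand and reads shared by copies is not given in the sources used here, so reads of overlapping genes are of uncertain origin. In the RefSeq gene table of GRCr8, protein-coding genes overlap Kcnab2, Kcnh3, Kcnj13 and Kcnk15. Long non-coding RNA genes overlap other members, among them Kcnc4, Kcng2, Kcnj6, Kcnj16, Kcnk3 and Kcnk12. The authors also deposited tables of their own PTX comparisons, which were not used here.

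The filter kept a gene if 2 or more libraries had over 20 reads for it. After TMM scaling, all 8 libraries were fitted with 1 coefficient per condition by the quasi-likelihood test of edgeR 4.0.16 in R 4.3.3. The Benjamini-Hochberg adjustment ran over all tested genes within each of 5 contrasts, with a threshold of 0.05. A compartment call further required a log2 fold change beyond 1 in either direction. Each SE comes from the log2 fold change and the F statistic. On simulated counts with 200 genes changed 2-fold in each PTX contrast, the test called 165 of them in somata and 181 in processes, with 4 and 11 false calls. The changed genes were drawn only from those above a minimum mean read count, and the simulated libraries had no shared replicate effect. These numbers therefore do not describe members with few reads or libraries that deviate together. Replicate pairs differed beyond sampling noise in each condition (chi-square per degree of freedom of 9.11 to 21.1).

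The labels number the replicates 1 and 2 in each condition. Deviations of same-numbered libraries from their condition means correlated across genes with r of 0.27 to 0.54 for all 6 pairs of conditions. The main fit, which gave the calls, SE and adjusted p, did not use this pairing. A fit with the numbers as a block was run as an alternative. What the numbers mark is not given in the sources used here. With the numbers as a block, the common dispersion was 0.00459 instead of 0.0132. Blocked counts are given beside the main counts, and blocked adjusted p beside some genes that passed only with the block.

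The members and the lists of partner and marker genes were chosen with earlier results of these data known. Named with values are members called for PTX, the 3 members with the smallest interaction p, the 8 most enriched and 8 most depleted called in control processes, the member with the most reads in each subfamily, the 5 with the most reads not called for PTX, and the 5 not called for PTX that had the smallest p with the block and passed there. Not every gene that this rule picks is given or drawn. Other genes that are named next to these, such as Kcna6, Kcnq3, Kcnip1, Kcnip3 and Kcnip4, were chosen after their values were seen. Tried as alternatives were DESeq2 1.42.0, the likelihood ratio test, other scalings and filters, only the libraries compared, an adjusted p under 0.1, no fold threshold, the block, and leaving out each library. Cntnap2, Itgam and Pecam1 were not analysed here. No gene lengths were used, so levels are not compared between genes.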

Additional observations from a re-analysis of the deposited data

How the results depend on the processing

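The 57 fold changes that the text reports for named potassium channel genes gave 962 values under other settings. Of these, 833 kept their direction and their side of the threshold, 89 kept the direction and no longer passed, 23 kept the direction and newly passed, and 17 changed direction. Of the 89 that no longer passed, 80 came from leaving out 1 library, which leaves a condition with a lone library that is assumed to vary like the others. Leaving the mitochondrial genes out before scaling changed no call among the 57.

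The number of members called for PTX in somata, 11, was 23 with the replicate block, 17 without a filter and between 0 and 12 when 1 library was left out. The 9 calls for PTX in processes became 15 with the block and between 1 and 8 when 1 library was left out. For the interaction 0 members passed with the edgeR quasi-likelihood test (6 at an unadjusted p under 0.05) and 0 in each alternative run, the likelihood ratio test and DESeq2 included. Between compartments, the 17 calls in control were 36 without the fold threshold and 60 with library size scaling, and the 27 in PTX were 60 with library size scaling. That scaling keeps the mitochondrial share in the total, and it moved the median of all tested genes as given in the report. Under it the log2 fold changes between compartments in control turned to -0.27 for Kcnab2, -0.38 for Kcne5, -0.69 for Kcng2, -0.15 for Kcnh3, -0.16 for Kcnj10 and -0.61 for Kcnk15. It also turned small PTX changes positive, to 0.0319 for Kcnma1 in somata, 0.00413 for Kcnma1 in processes and 0.00635 for Kcnd3 in somata.

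Leaving out 1 library changed the direction of PTX changes that had not passed. These ranged from -0.0274 to 0.115 for Kcna2, from -0.84 to 0.42 for Kcnj10 and from -0.33 to 0.12 for Kcnt2 in processes, and from -0.91 to 0.30 for Kcnj10 and from -0.126 to 0.0433 for Kcnma1 in somata. None of the called PTX changes passed in all 8 of these fits, and none changed direction in them. With only the libraries compared, the calls lost included Kcnc4 and Kcnk9 in processes and Kcnmb4 in somata, and the cause was not tested. Among the 57 fold changes, the replicate block changed 7 calls, each from not passing to passing, and those of genes described above stand beside their results. The median tested member had 55 to 71 reads per library in processes and 168 to 232 in somata, and the part of this depth in the calls was not tested.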
